A study of Homo sapiens with 12 samples.

Results

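Expression of NDUFA4, its paralogs NDUFA4L2 and C15orf48, the cytochrome c oxidase subunit 4 isoforms COX4I1 and COX4I2, and the mitochondrial protease LONP1 was examined after knockdown of HIF1A, HIF2A or both in RCC4 cells. The 6 genes were chosen by symbol among the 23106 gene symbols counted in each library, with earlier results of these data known. Bulk polyA RNA-seq libraries were made from RCC4, an established clear cell renal carcinoma line that lacks functional VHL and therefore keeps HIF-1α and HIF-2α stable in normal oxygen. The experiment was made to separate genes that depend on HIF-1 from those that depend on HIF-2. Each of the 4 conditions had 3 replicates, and cells were harvested 48 h after transfection with siRNA pools at 2 nM in total.

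Control cells received 2 nM control siRNA. Cells with HIF1A siRNA received 1 nM of it with 1 nM control siRNA, and cells with HIF2A siRNA, which targets EPAS1 (the gene encoding HIF-2α), received 1 nM of it with 1 nM control siRNA. The double knockdown received 1 nM HIF1A siRNA and 1 nM HIF2A siRNA, without control siRNA. All conditions therefore share the VHL defect of a single cell line, and no condition without HIF stabilization was analysed here. Conditions were compared within replicate numbers, and a gene was called changed at an adjusted p under 0.05 (quasi-likelihood test of edgeR with Benjamini-Hochberg adjustment over all genes tested).

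Cytochrome c oxidase, complex IV of the respiratory chain, passes electrons to oxygen. NDUFA4 was once assigned to complex I and is a subunit of complex IV. NDUFA4L2 is a paralog known as a hypoxia-induced gene of HIF-1, and C15orf48 is a paralog known from inflamed tissue, where its protein can take the place of NDUFA4. Subunit 4 has a common isoform, COX4I1, and a second isoform, COX4I2, found mainly in lung and in pericytes. In the known COX4 switch, HIF-1 raises COX4I2 together with LONP1, the matrix protease that degrades the COX4I1 protein.

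Total counts per library lay between 13263168 and 20451433, and no 2 libraries of a condition agreed within sampling noise. HIF1A was at 120, 58.2 and 112 CPM (counts-per-million of the library total, scaled by TMM factors) with control siRNA (replicates 1 to 3) and at 15, 17.8 and 22.2 CPM with HIF1A siRNA. EPAS1 was at 163, 138 and 171 CPM with control siRNA and at 9.16, 11.9 and 9.33 CPM with HIF2A siRNA. In the double knockdown HIF1A was at 24.2 to 32.2 CPM and EPAS1 at 7.01 to 11.3 CPM. Each targeted gene was thus lower than in every control library, with a log2 fold change of -2.37 for HIF1A with HIF1A siRNA (edgeR, adjusted p = 4.26e-05) and of -3.95 for EPAS1 with HIF2A siRNA (edgeR, adjusted p = 1.43e-07). Of 10 renal epithelial markers, 9 reached 1 CPM in some library, with summed levels of 1509 to 1836 CPM over all libraries; CDH1 stayed at or under 0.482 CPM. Of 10 pericyte and smooth muscle markers 4 did, with summed levels of 16.4 to 22.8 CPM with control siRNA, 15.7 to 26.6 with HIF1A siRNA, 17.0 to 30.9 with HIF2A siRNA and 15.9 to 28.1 in the double knockdown, and KCNJ8 was at 0 in every library. None of 6 endothelial markers reached 1 CPM. Of the leukocyte markers, CD68 and LYZ reached 1 CPM, and PTPRC and CD3E were at 0 in every library.

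Of the 6 genes, 5 passed the filter on low counts in both fits, and COX4I2 had no count in any library. NDUFA4L2 had the largest response to HIF1A siRNA among them, and C15orf48 was lower within every replicate number under each of the siRNAs. LONP1 was lower with HIF1A siRNA, while NDUFA4 and COX4I1 were not called in any comparison with control siRNA. HIF1A siRNA called 150 of 12830 genes (1.17%), of which 146 were lower, and these included 3 of the 5 genes tested. Because the genes were chosen with earlier results known, the share called among them is no test of enrichment. HIF2A siRNA called 11 of 12830 (0.0857%) and 0 of the 5, with 1 of the 5 at an unadjusted p under 0.05. This was C15orf48 (edgeR, unadjusted p = 8.04e-05), which was called by DESeq2. The double knockdown called 1336 of 13000 (10.3%), including 2 of the 5. These edgeR counts moved by over 1.5 times when some libraries were left out. For HIF1A siRNA the count was 66, 79 and 90 without its own replicates 1, 2 and 3 and 94 without control replicate 3. For HIF2A siRNA it was 1 without control replicate 3, 4 without its own replicate 3 or HIF1A siRNA replicate 2, 6 without its own replicate 1, 17 without control replicate 2 and 33 without control replicate 1. For the double knockdown it was 667, 766 and 747 without its own replicates 1, 2 and 3, 702 without control replicate 3 and 2307 without HIF2A siRNA replicate 2, and 302 with every library of replicate 3 left out. Without the replicate block 0 of the 5 genes were called in any comparison by edgeR, and the genes called here then had an adjusted p between 0.0716 and 1.0 against control siRNA. Because the 3 comparisons share the control libraries, they are not independent of each other.

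**Figure D1:**
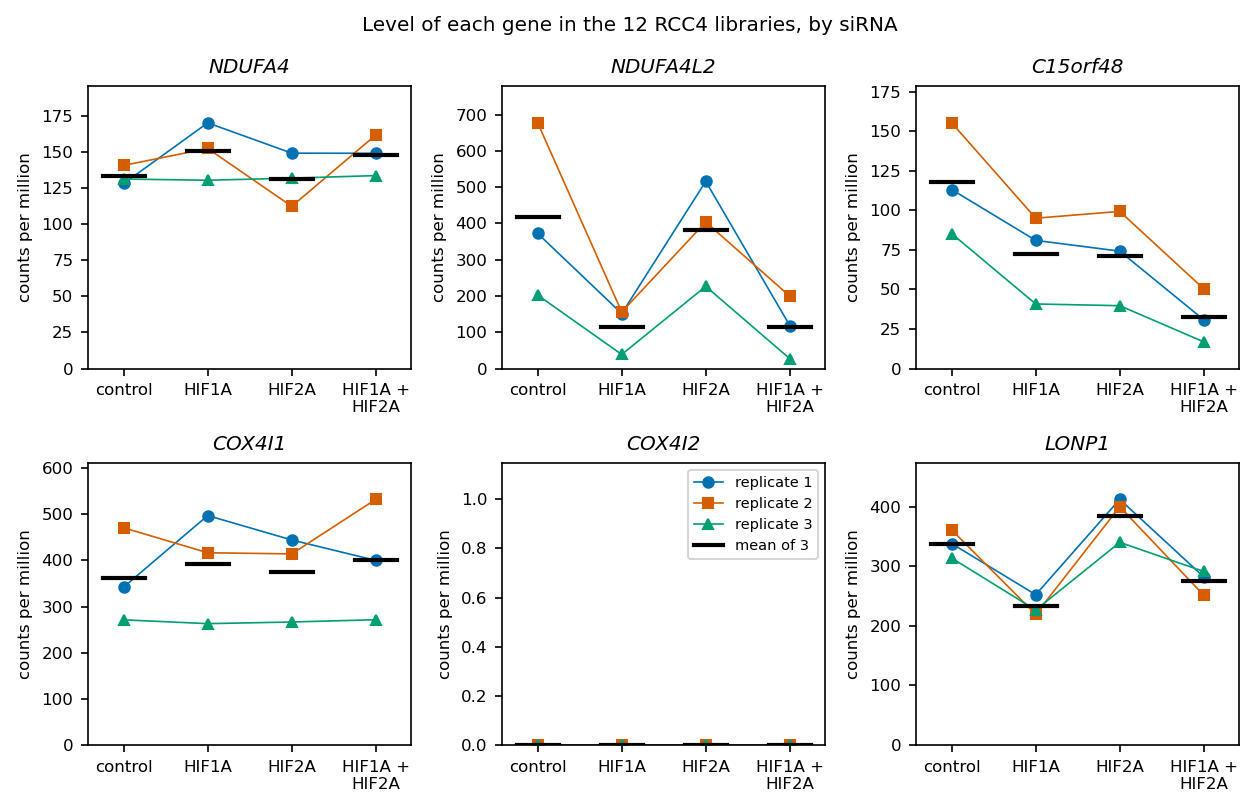
Level of each gene in CPM (vertical axes, linear from 0) in the 12 libraries, by siRNA (horizontal axes). Points are libraries, joined by replicate number, and black bars are means of 3. NDUFA4L2 and LONP1 are lower in all libraries with HIF1A siRNA and in all of the double knockdown than in the controls, C15orf48 is lowest in the double knockdown within every replicate, COX4I1 is ordered mainly by replicate, and COX4I2 is at 0 throughout.

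NDUFA4, on chromosome 7 (10931943 to 10940153, minus strand, GRCh38), was not called in any comparison with control siRNA. It was at 128, 141 and 131 CPM with control siRNA, at 170, 152 and 130 CPM with HIF1A siRNA, at 149, 112 and 132 CPM with HIF2A siRNA, and at 149, 162 and 134 CPM in the double knockdown. The 4 groups overlapped, and no library stood apart. The log2 fold change against control siRNA was 0.17 (95% interval -0.11 to 0.45) with HIF1A siRNA, -0.02 (-0.30 to 0.25) with HIF2A siRNA and 0.15 (-0.11 to 0.41) in the double knockdown, with edgeR adjusted p of 0.891, 0.993 and 0.492. These intervals leave out a change of 1 on the log2 scale, in either direction.

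NDUFA4L2 lies on chromosome 12 (57234903 to 57240715, minus strand, GRCh38; the counts were made on hg19). It was at 372, 677 and 202 CPM with control siRNA, replicate 2 being the highest and replicate 3 the lowest. With HIF1A siRNA it was at 152, 156 and 38.7 CPM, below every control library. Within replicates this was 40.7, 23.0 and 19.1% of control, a log2 fold change of -1.93 ± 0.22 (SE), which was called (edgeR, adjusted p = 0.000352) and lower in 3 of 3 pairs. It kept this call without any 1 library or replicate number (adjusted p between 3.36e-05 and 0.0132). In bulk libraries fewer expressing cells and less RNA per cell cannot be told apart.

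With HIF2A siRNA, NDUFA4L2 was at 516, 404 and 226 CPM. These libraries overlapped with the controls, with 1 of 3 pairs lower and the others higher. The log2 fold change was -0.03 with a 95% interval of -0.49 to 0.44 (edgeR, adjusted p = 0.998), so that a moderate change in either direction was not excluded. The difference between the siRNAs was itself tested in the comparison of HIF1A siRNA with HIF2A siRNA, which called 193 of 12830 genes (1.5%). There NDUFA4L2 was at -1.90 ± 0.22, lower with the HIF1A siRNA (edgeR, adjusted p = 0.00043), in 3 of 3 pairs and without overlap.

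In the double knockdown NDUFA4L2 was at 118, 199 and 27.2 CPM, or 31.8, 29.4 and 13.4% of control within replicates. The highest of these libraries was just under the lowest control library. The log2 fold change was -2.06 ± 0.27 against control siRNA (edgeR, adjusted p = 0.000206) and -2.06 ± 0.28 against HIF2A siRNA (edgeR, adjusted p = 0.000359), where 520 of 13000 genes (4%) were called. Against HIF1A siRNA, where 182 of 13000 genes (1.40%) were called, it was -0.12 (95% interval -0.69 to 0.45; edgeR, adjusted p = 0.907). The double knockdown and the single HIF1A knockdown thus gave NDUFA4L2 levels that overlapped, with an interval too wide to call them equal.

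C15orf48 lies on chromosome 15 (45430579 to 45448761, plus strand, GRCh38). It was at 113, 155 and 85.3 CPM with control siRNA. With HIF1A siRNA it was at 81.0, 95.1 and 40.8 CPM, and with HIF2A siRNA at 74.2, 99.4 and 39.7 CPM. The groups overlapped between replicates, but within each replicate number both siRNAs gave lower values, 47.9 to 71.6% of control with HIF1A siRNA and 46.6 to 65.6% with HIF2A siRNA. Replicate 2 was highest and replicate 3 lowest in 4 of 4 conditions.

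C15orf48 was called with HIF1A siRNA, at a log2 fold change of -0.75 ± 0.14 (edgeR, adjusted p = 0.014), lower in 3 of 3 pairs. With HIF2A siRNA the change was of similar size, -0.78 ± 0.14, but was not called (edgeR, adjusted p = 0.0643), also lower in 3 of 3 pairs. The unadjusted p was 0.00011 with HIF1A siRNA and 8.04e-05 with HIF2A siRNA (edgeR). Adjustment was made over all genes of a comparison, of which 150 and 11 were called. The calls thus differed through this adjustment, and not through a larger p with HIF2A siRNA. The direct comparison of HIF1A siRNA with HIF2A siRNA gave 0.03 (95% interval -0.27 to 0.32; edgeR, adjusted p = 0.968). The call with HIF1A siRNA was lost without control replicate 3 (adjusted p = 0.177), without HIF1A siRNA replicate 1 (0.0544), replicate 2 (0.136) or replicate 3 (0.162), and without replicate number 3 (0.616). With HIF2A siRNA a call was gained without control replicate 1 (edgeR, adjusted p = 0.0124), without control replicate 2 (0.0386), without replicate number 2 (0.0309), with no filter (0.00457), with all 12 libraries in the fit (0.0235) and with DESeq2 (0.000145). EPAS1, the target of the other siRNA, was at 101, 107 and 134 CPM with HIF1A siRNA, below every control library. Its log2 fold change against control was -0.47 (95% interval -0.79 to -0.15), lower in 3 of 3 pairs. This change was not called (edgeR, unadjusted p = 0.00749, adjusted p = 0.28). The part of EPAS1 in the C15orf48 levels was not tested.

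In the double knockdown C15orf48 was at 30.8, 50.4 and 16.8 CPM, 27.2, 32.4 and 19.7% of control within replicates. All 3 libraries were below every control library, and each was the lowest of its replicate number. The log2 fold change was -1.95 ± 0.14 against control siRNA (edgeR, adjusted p = 4.3e-07), -1.19 ± 0.14 against HIF1A siRNA (adjusted p = 0.000258) and -1.15 ± 0.14 against HIF2A siRNA (adjusted p = 0.000108), each lower in 3 of 3 pairs. C15orf48 was the only 1 of the 5 genes called lower in the double knockdown than in both single knockdowns. Over all genes 126 of 13000 were called lower against HIF1A siRNA and 418 against HIF2A siRNA. How many were called lower in both was not counted. The interaction, which measures how far the double knockdown departs from the sum of the log2 changes of the single ones, was -0.40 (95% interval -0.81 to 0.01; unadjusted p = 0.0549, edgeR adjusted p = 0.999) for C15orf48, -0.12 (-0.92 to 0.69) for NDUFA4L2 and 0.06 (-0.26 to 0.38) for LONP1. No gene was called for the interaction by edgeR (0 of 13000, 0%), with 318 at an unadjusted p under 0.05 and 11 called by DESeq2.

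**Figure D2:**
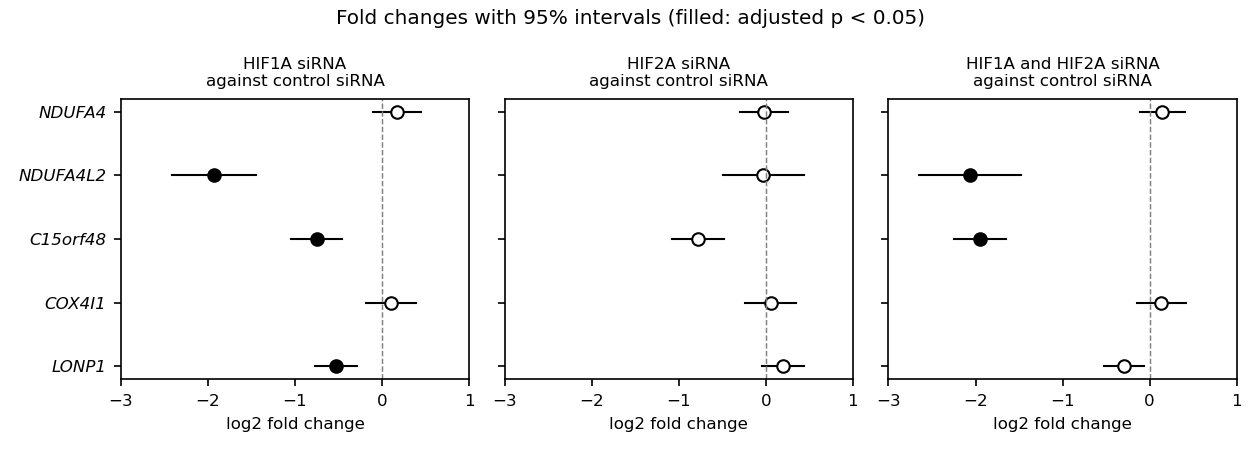
Log2 fold change against control siRNA (horizontal axes) of the 5 genes with counts, with 95% intervals, for HIF1A siRNA, HIF2A siRNA and the double knockdown. Filled points passed an adjusted p of 0.05. C15orf48 is at -0.75, -0.78 and -1.95, whereas NDUFA4L2 is at -1.93, -0.03 and -2.06.

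The change of the paralogs relative to NDUFA4 was read as a ratio of counts within a library, which needs no scaling between libraries. With control siRNA the libraries held 2.91, 4.81 and 1.54 counts of NDUFA4L2 per count of NDUFA4. With HIF1A siRNA they held 0.891, 1.02 and 0.297, with HIF2A siRNA 3.46, 3.60 and 1.72, and in the double knockdown 0.795, 1.23 and 0.203. The ratio was below the lowest control library in all 6 libraries that received HIF1A siRNA. For C15orf48 per NDUFA4 the control libraries held 0.884, 1.10 and 0.650, and the double knockdown 0.207, 0.312 and 0.126. The HIF1A siRNA libraries held 0.476, 0.624 and 0.313, and the HIF2A siRNA libraries 0.498, 0.885 and 0.302, of which the highest lay among the controls.

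On the log2 scale the NDUFA4L2 to NDUFA4 ratio differed from control by -2.11 with HIF1A siRNA, by -0.0046 with HIF2A siRNA and by -2.25 in the double knockdown. For the C15orf48 to NDUFA4 ratio the differences were -0.92, -0.75 and -2.09. Over these 6 comparisons a two-sided exact permutation test of 3 against 3 libraries gave p = 0.1 for the 4 differences of HIF1A siRNA and the double knockdown (adjusted p = 0.15), and p = 1.0 and p = 0.3 for those of HIF2A siRNA (exact, adjusted p = 1.0 and 0.36). The smallest p that 3 against 3 allows is 0.1, so this test, which does not use the pairing by replicate number, cannot pass 0.05. Within replicate numbers 1, 2 and 3 the C15orf48 to NDUFA4 ratio with HIF2A siRNA differed from control by -0.83, -0.32 and -1.11 on the log2 scale, lower in 3 of 3 pairs.

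**Figure D3:**
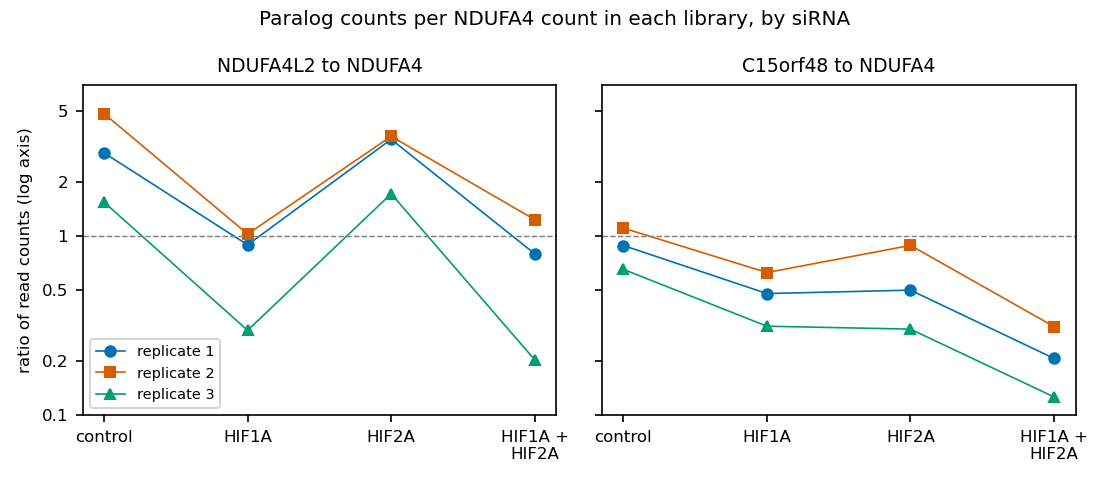
Counts of NDUFA4L2 (left) and C15orf48 (right) per count of NDUFA4 in each library (vertical axis, log scale), by siRNA (horizontal axis), joined by replicate number, with a dashed line at 1. NDUFA4L2 exceeds NDUFA4 in counts in all control libraries and is near or under it in the libraries with HIF1A siRNA, and C15orf48 per NDUFA4 is lowest in the double knockdown.

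C15orf48 also hosts the microRNA miR-147b, and NDUFA4 holds a match to its seed. The microRNA and the site are shown because they link both genes by sequence. The mature sequence (RefSeq, chr15:45433098-45433118, plus strand, GRCh38.p14) has its seed, bases 2 to 8, in capitals. The site is given with its flanks from the GENCODE MANE transcript of NDUFA4 (bases 386 to 415 of 2035, after the coding part, which ends at base 342), with the bases complementary to the seed in capitals.
hsa-miR-147b-3p: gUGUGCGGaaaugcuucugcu
NDUFA4 site: cagaagccacatCCGCACAattttccactt
The NDUFA4 transcript held 1 such site and the MANE transcripts of the other 5 genes held 0. Of all 19061 MANE transcripts, 1598 (8.38%) held the 7 bases at least once, on the sense strand, so the match by itself is common. MicroRNAs are not captured by polyA libraries, and miR-147b was not measured. NDUFA4 had intervals around 0 in all 3 comparisons with control siRNA, including the double knockdown, where C15orf48 was at 19.7 to 32.4% of control; a part of miR-147b in these levels was not tested.

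COX4I1 lies on chromosome 16 (85798633 to 85807068, plus strand, GRCh38). It was at 343, 471 and 271 CPM with control siRNA, at 497, 417 and 263 CPM with HIF1A siRNA, at 444, 414 and 267 CPM with HIF2A siRNA, and at 400, 533 and 272 CPM in the double knockdown. Replicate 3 was the lowest in 4 of 4 conditions, and the groups overlapped. The log2 fold changes against control siRNA were 0.10 (95% interval -0.19 to 0.40), 0.05 (-0.24 to 0.35) and 0.13 (-0.15 to 0.41), with edgeR adjusted p of 0.946, 0.984 and 0.576. The common isoform of subunit 4 was therefore not called, and a change of 1 on the log2 scale lies outside each interval.

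COX4I2, the isoform of the known switch, on chromosome 20 (31637912 to 31645006, plus strand, GRCh38), had 0 counts in all 12 libraries. A count of 0 allows up to 3 counts, which is 0.146 to 0.226 CPM depending on the depth of the library. Per kilobase of transcript this limit was 0.0364 to 0.0782% of the COX4I1 level of the same library, for counting error only. It rests on the MANE length of COX4I1, 763 bases. Over the union of its annotated exons, 4816 bases, the limit would be a higher percentage. COX4I2 could not be tested, and no change in the isoform ratio was detectable at this depth with either siRNA, in cells with stable HIF. Among 3 genes known to regulate COX4I2 (RBPJ, CXXC5 and CHCHD2), none was called with HIF1A siRNA or HIF2A siRNA by edgeR or DESeq2, with 1 and 0 at an unadjusted p under 0.05. Over all genes edgeR called 1.17% and 0.0857% in these comparisons, so 0 of 3 is near the background. RBPJ, a transcription factor of Notch signaling, in the double knockdown fell by 0.38 on the log2 scale (edgeR, adjusted p = 0.0331), after a value of -0.36 with HIF1A siRNA that was not called (adjusted p = 0.369). It was 1 of the 3 called in the double knockdown, where 10.3% of all genes were called.

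LONP1 lies on chromosome 19 (5691834 to 5720572, minus strand, GRCh38). It was at 338, 361 and 314 CPM with control siRNA and at 252, 219 and 227 CPM with HIF1A siRNA. The groups did not overlap, and within replicates LONP1 was at 60.8 to 74.6% of control. The log2 fold change was -0.53 ± 0.11 (edgeR, adjusted p = 0.0361), lower in 3 of 3 pairs. With HIF2A siRNA it was at 413, 400 and 340 CPM, a log2 fold change of 0.19 (95% interval -0.05 to 0.43; edgeR, adjusted p = 0.937), with 0 of 3 pairs lower. The double knockdown libraries were at 282, 252 and 291 CPM. They were below all controls, but the log2 fold change of -0.29 (95% interval -0.52 to -0.07) was not called (edgeR, adjusted p = 0.0922).

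LONP1 was at -0.73 ± 0.11 for HIF1A siRNA against HIF2A siRNA, on the log2 scale (edgeR, adjusted p = 0.0038) and at -0.48 ± 0.11 for the double knockdown against HIF2A siRNA (edgeR, adjusted p = 0.0184), each lower in 3 of 3 pairs. Against HIF1A siRNA the double knockdown was at 0.24 (95% interval 0.02 to 0.47; edgeR, adjusted p = 0.362). HIF1A itself was at 24.2, 32.2 and 29.7 CPM in the double knockdown and at 15, 17.8 and 22.2 CPM with HIF1A siRNA alone (log2 difference 0.66; edgeR, adjusted p = 0.182); its part in the LONP1 levels was not tested.

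Of the calls on LONP1, that with HIF1A siRNA against control siRNA was nearest to the threshold. The call for HIF1A siRNA against HIF2A siRNA (edgeR, adjusted p = 0.0038) was kept in 16 of 19 alternatives. That of the double knockdown against HIF2A siRNA was kept in 13 of 21. The call with HIF1A siRNA was lost without control replicate 2 (edgeR, adjusted p = 0.0867) or 3 (0.285), without HIF1A siRNA replicate 1 (0.21), 2 (0.341) or 3 (0.156), without HIF2A siRNA replicate 1 (0.0529) or 3 (0.0881), and without replicate number 1 (0.0951), 2 (0.0764) or 3 (0.654). The call for HIF1A siRNA against HIF2A siRNA was lost without HIF1A siRNA replicate 2 (edgeR, adjusted p = 0.0748) or replicate number 3 (0.11). The call of the double knockdown against HIF2A siRNA was lost without HIF2A siRNA replicate 1 (edgeR, adjusted p = 0.0646), without double knockdown replicate 1 (0.136) or 2 (0.143), without replicate number 1 (0.135), 2 (0.0538) or 3 (0.109), and with only the compared conditions in the fit (0.189). The double knockdown against control siRNA gained a call without HIF2A siRNA replicate 2 (edgeR, adjusted p = 0.0369) and with only the compared conditions in the fit (0.0291).

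Promoter windows of the 3 called genes are shown with matches to the core of the HIF binding motif, ACGTG or GCGTG on either strand, in capitals. Each window holds 250 bases before and 50 bases after a RefSeq start, read 5′ to 3′ on the strand of the gene (GRCh38.p14). Overlapping matches were each counted, so that CACGTG counts on both strands.
C15orf48 (chr15:45430360-45430659, plus strand): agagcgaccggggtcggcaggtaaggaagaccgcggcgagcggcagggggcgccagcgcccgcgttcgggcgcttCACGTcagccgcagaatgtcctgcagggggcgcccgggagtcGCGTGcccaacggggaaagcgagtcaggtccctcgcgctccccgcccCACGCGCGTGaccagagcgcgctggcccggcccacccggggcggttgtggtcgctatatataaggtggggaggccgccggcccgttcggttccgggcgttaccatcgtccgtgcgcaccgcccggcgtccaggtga
LONP1 (chr19:5720097-5720396, minus strand): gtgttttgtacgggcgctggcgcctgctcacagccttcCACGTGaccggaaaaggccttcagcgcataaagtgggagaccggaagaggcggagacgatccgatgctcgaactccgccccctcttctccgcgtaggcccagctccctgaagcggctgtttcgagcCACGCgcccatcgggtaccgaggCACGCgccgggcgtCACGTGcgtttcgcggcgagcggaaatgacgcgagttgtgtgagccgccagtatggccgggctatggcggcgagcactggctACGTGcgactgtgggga
NDUFA4L2 (chr12:57240713-57241012, minus strand): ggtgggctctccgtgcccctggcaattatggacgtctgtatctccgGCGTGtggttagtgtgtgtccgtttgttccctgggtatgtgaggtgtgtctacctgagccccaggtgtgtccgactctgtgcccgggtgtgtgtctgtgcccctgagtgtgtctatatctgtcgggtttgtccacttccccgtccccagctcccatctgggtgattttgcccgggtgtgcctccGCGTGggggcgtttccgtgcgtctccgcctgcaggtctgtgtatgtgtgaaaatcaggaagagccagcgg
The C15orf48 window held 4 matches, the LONP1 window 7 and the NDUFA4L2 window 2. A second window of LONP1 held 1 and a second, overlapping window of NDUFA4L2 held 2. The windows of NDUFA4 and COX4I1, the genes that were not called, held 0. A link between matches and calls was not tested. Of 34943 windows of this length in the table, 48.4% held at least 1 match and 1.96% at least 5. The RefSeq starts of NDUFA4L2 used for its windows are those of its longer transcripts. A match is a run of letters and not a measured binding site, and binding was not measured. COX4I2 had no window in the table.

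Levels were compared between genes per kilobase of the MANE transcript (2035 bases for NDUFA4, 943 for NDUFA4L2, 649 for C15orf48, 763 for COX4I1 and 3092 for LONP1). With control siRNA the order was COX4I1 at 474 ± 132 CPM per kilobase (SD, n = 3), NDUFA4L2 at 442 ± 255, C15orf48 at 182 ± 54.4, LONP1 at 109 ± 7.65, NDUFA4 at 65.5 ± 3.21 and COX4I2 at 0. COX4I1 and NDUFA4L2 overlapped, as did NDUFA4L2 and C15orf48, while the lower neighbors did not overlap. With HIF1A siRNA COX4I1 was at 514 ± 156 CPM per kilobase, and NDUFA4L2 at 122 ± 70.5, C15orf48 at 111 ± 43.4, LONP1 at 75.3 ± 5.60 and NDUFA4 at 74.2 ± 9.78 all overlapped.

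With HIF2A siRNA the order was that of the controls apart from C15orf48 at 110 ± 46.1 CPM per kilobase, next to LONP1 at 124 ± 12.5, and these overlapped. In the double knockdown C15orf48, at 50.4 ± 26.0 CPM per kilobase, was the lowest gene with counts, overlapping with NDUFA4 at 72.8 ± 6.93. NDUFA4L2, at 122 ± 91.3, overlapped with LONP1 at 89.0 ± 6.75. The place of COX4I1 depended on the length used. Over the union of all annotated exons it was at 75.1 ± 21.0 CPM per kilobase in the controls, below NDUFA4L2 at 149 ± 85.8 and C15orf48 at 87.1 ± 26.0.

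Replicate number took different shares of the variance of log2 CPM in the 5 genes. It accounted for 84.5% in COX4I1, 37.1% in NDUFA4L2, 34.7% in C15orf48, 19.4% in NDUFA4 and 3.06% in LONP1, against a median of 46.5% over 13000 genes. The siRNA accounted for 89.0% in LONP1, 63.2% in C15orf48, 56.3% in NDUFA4L2, 31.7% in NDUFA4 and 1.97% in COX4I1, against a median of 19.2%. COX4I1 was thus ordered by replicate and LONP1 by siRNA.

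The other genes of complex IV served as a reference. Of 15 listed further subunits, 10 passed the filter, and 0 were called by edgeR with HIF1A siRNA, HIF2A siRNA or the double knockdown against control siRNA (1, 0 and 3 at an unadjusted p under 0.05; DESeq2 called 0, 0 and 1, COX5A). Over all genes 1.17%, 0.0857% and 10.3% were called by edgeR, and 940 and 690 of 12830 and 3291 of 13000 had an unadjusted p under 0.05, so a count of 0 in a list of this length is near the background. Their median log2 fold changes were 0.11, -0.0088 and 0.25, beside 0.0035, 0.0063 and 0.0048 over all genes. COX5A, which joins subunit 4 early in assembly, was at 0.40 with HIF1A siRNA (edgeR, adjusted p = 0.347) and 0.35 in the double knockdown (adjusted p = 0.0836). Of 26 assembly factors all were tested and 0 were called by edgeR in those comparisons, beside the same shares of all genes (1, 0 and 5 at an unadjusted p under 0.05; DESeq2 called 0, 0 and 2, COA3 and COX18). Their medians were 0.14, 0.09 and 0.20. COX18, which inserts a core subunit into the inner membrane, was at 0.56 in the double knockdown (edgeR, adjusted p = 0.0503).

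LONP1 was set beside 14 other mitochondrial proteases and chaperones, all of them tested. With HIF1A siRNA and with HIF2A siRNA 0 were called by edgeR and DESeq2, with 1 at an unadjusted p under 0.05 in each, and medians were 0.07 and 0.03. Of the 14 genes 2 rose in the double knockdown, OMA1, an inner membrane protease of the stress response, by 0.85 (edgeR, adjusted p = 0.0202) and TRAP1, a matrix chaperone, by 0.50 (adjusted p = 0.00574), and the median was 0.17. With HIF1A siRNA alone OMA1 was already at 0.64 (edgeR, adjusted p = 0.474) and TRAP1 at 0.15 (adjusted p = 0.891), neither called. In the double knockdown 502 of 13000 genes were called higher and 834 lower, together 10.3%. Whether 2 of 14 called higher differs from the share over all genes was not tested. DESeq2 called 3 (HSPE1, OMA1 and TRAP1). With HIF1A siRNA the lowest of the 14 was the protease subunit CLPP at -0.16 (edgeR, adjusted p = 0.915), against -0.53 for LONP1.

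**Figure D4:**
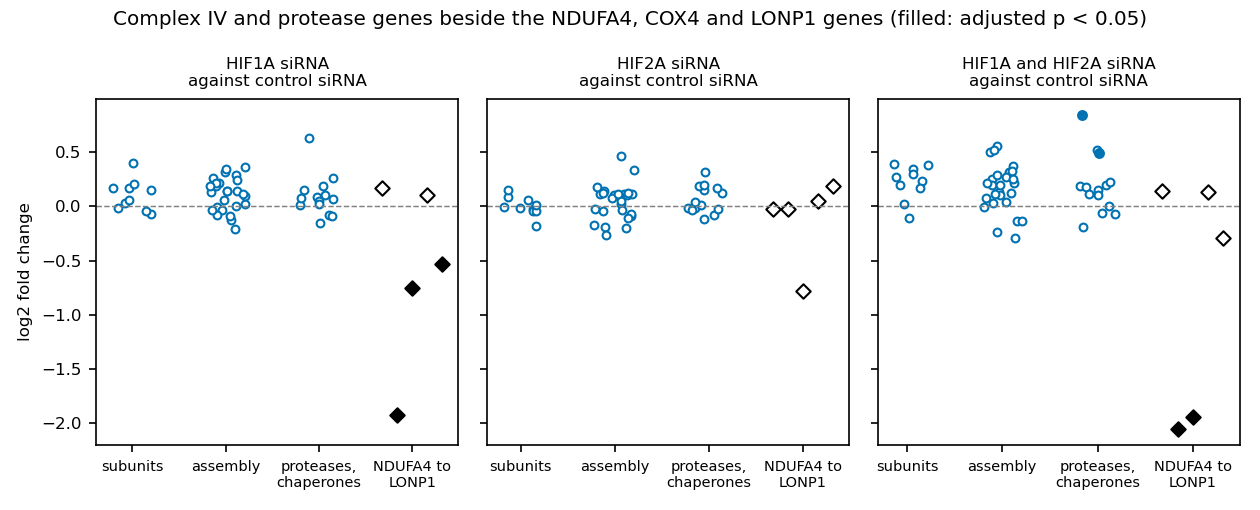
Log2 fold change against control siRNA (vertical axis) of 10 further complex IV subunits, 26 assembly factors and 14 mitochondrial proteases and chaperones (circles, spread sideways for legibility), beside NDUFA4, NDUFA4L2, C15orf48, COX4I1 and LONP1 (diamonds, left to right), in 3 comparisons. Filled symbols passed an adjusted p of 0.05. The circles with HIF1A siRNA lie between -0.21 and 0.64, above the 3 filled diamonds at -0.53, -0.75 and -1.93.

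The genes whose log2 CPM over the 12 libraries, after subtraction of replicate means, was most like each of the 5 were taken as a description. NDUFA4L2 was most like ALDOA, a glycolytic aldolase, SERPING1 and NXPH4 (Pearson r = 0.98 for each). ALDOA had 2704 ± 256 CPM (SD, n = 3) in the controls, 1595 ± 250 with HIF1A siRNA, 2768 ± 264 with HIF2A siRNA and 1404 ± 175 in the double knockdown. C15orf48 was most like DENND3, PPARD, a lipid-sensing nuclear receptor, and CCL20, a chemokine (r = 0.98 for each). PPARD was at 75.0 ± 1.60, 61.5 ± 6.72, 56.9 ± 7.92 and 42.0 ± 5.74 CPM in the same order of conditions, lowest in the double knockdown. CCL20 was near the floor, at 1.64 ± 0.39 CPM in the controls and 0.067 ± 0.077 in the double knockdown.

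LONP1 was most like SLC6A8, the creatine transporter (r = 0.98), THAP11 and CCDC64B (r = 0.97 for each). SLC6A8 had 154 ± 15.5 CPM in the controls, 97.1 ± 13.3 with HIF1A siRNA, 187 ± 32.8 with HIF2A siRNA and 122 ± 10.0 in the double knockdown. CCDC64B was low, at 5.97 ± 3.43 CPM in the controls and 0.024 ± 0.042 with HIF1A siRNA. NDUFA4 was most like BTF3 (r = 0.98), CMC1, one of the complex IV assembly factors (r = 0.97), and NUDT5 (r = 0.97), and COX4I1 most like FAU, ISG15 and CLTA (r = 0.96 for each). These values share their libraries, depth and replicate structure, and were chosen as the highest among 13000 genes. Without the subtraction BTF3, CMC1 and NUDT5 were no longer among the 10 genes most like NDUFA4. The same held for ALDOA and NXPH4 with NDUFA4L2, DENND3, PPARD and CCL20 with C15orf48, and ISG15 and CLTA with COX4I1. SERPING1, FAU and the genes named for LONP1 stayed among the 10. DENND3 with C15orf48 fell furthest, to r = 0.31.

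Some of the genes overlap others. In GENCODE (GRCh38) NDUFA4L2 shares 33 bases with SHMT2, LONP1 42 with RPL36 and COX4I1 976 with EMC8, all on the opposite strand, and C15orf48 shares 11157 bases with an antisense lncRNA and, on its own strand, 335 with SLC30A4-AS1 and 80 with MIR147B, introns included. Fragments were counted in the intersection-strict mode of HTSeq, in which a fragment that lies wholly within exons of both genes is counted for neither. Whether the counting used strand was not stated, and the annotation used for the counting was another, so how many fragments of the 4 genes were lost in this way is not known.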

How the data were processed

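PolyA RNA-seq libraries of RCC4 cells in 4 conditions with 3 replicates each were analysed. According to the methods and the submitters' processing notes, the authors trimmed reads with Trim Galore 0.3.3, aligned them to hg19 with HISAT2 2.05, removed fragments without a unique position with Picard 2.0.1, counted fragments with HTSeq 0.5.4p3 in its intersection-strict mode and deposited the counts of each gene symbol as they were, not normalized. The strand setting of the counting is not given in the sources used here. The methods call the replicates biological, and all were cultures of the RCC4 line. The p-values of the main edgeR tests measure the spread left after differences between replicate numbers are removed.

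These deposited counts were tested for differences with edgeR 4.0.16 in R 4.3.3 (TMM normalization, filterByExpr with a minimum count of 10 and a total of 15, quasi-likelihood test, replicate number as a block because the study paired conditions by replicate). The 9 libraries with control, HIF1A or HIF2A siRNA were fitted together, and all 12 for the double knockdown and the interaction. Deviations from the condition means correlated, across genes, at 0.0963 to 0.738 between libraries of the same number and at -0.642 to 0.441 between others. CPM used TMM factors (0.980 to 1.02), ratios added 0.5 to each count, and likeness used log2 CPM with a prior count of 2. Likeness named the 3 genes with the highest r for each gene. Members and lists were chosen with earlier results of these data known. Alternatives were DESeq2 1.42.0 size factors, the DESeq2 test, no filter, at least 10 counts in every library, no block, other sets of libraries, and each replicate number and library left out. Promoters and the microRNA were taken from RefSeq, with 5 of 6 genes matched (some under newer symbols), and transcripts from GENCODE v44; no coordinate was converted from hg19. Plots used matplotlib 3.10.9.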

Additional observations from a re-analysis of the deposited data

How the results depend on the processing

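NDUFA4L2 kept its call with HIF1A siRNA in 18 of 19 alternatives, C15orf48 in 13 of 19 and LONP1 in 8 of 19; in the double knockdown against control siRNA, NDUFA4L2 and C15orf48 each kept theirs in 20 of 21. Without the replicate block 0 of the 5 genes were called in any comparison, by edgeR. The log2 fold changes without the block were, with HIF1A siRNA, -1.85 for NDUFA4L2 (adjusted p = 0.658), -0.70 for C15orf48 (adjusted p = 1.0) and -0.53 for LONP1 (adjusted p = 0.397), and in the double knockdown -1.86 for NDUFA4L2 (adjusted p = 0.305) and -1.86 for C15orf48 (adjusted p = 0.0716), with 0.12 for the NDUFA4L2 interaction, opposite in sign. The numbers of genes called without the block were 41 (against 150), 1 (against 11), 52 (against 193), 195 (against 1336), 8 (against 182) and 90 (against 520) in the order HIF1A, HIF2A, HIF1A against HIF2A, and double knockdown against control, HIF1A and HIF2A siRNA, and DESeq2 called 236, 58, 329, 1850, 403 and 818. With HIF2A siRNA 1 of the 5 genes was called with no filter (C15orf48, -0.78), by DESeq2 (-0.78) and with all 12 libraries (-0.79), and LONP1 in the double knockdown was at -0.29 and called with only the compared conditions. With libraries or replicate numbers left out, the number of the 5 genes called ranged from 1 to 3 for HIF1A siRNA, from 0 to 1 for HIF2A siRNA and from 1 to 2 for HIF1A against HIF2A siRNA. The log2 fold changes with HIF1A siRNA then ranged from -0.88 to -0.59 for C15orf48, from -0.59 to -0.45 for LONP1 and from -0.10 to 0.24 for COX4I1, and with HIF2A siRNA from -0.15 to 0.10 for NDUFA4, from -0.29 to 0.29 for NDUFA4L2, from -0.89 to -0.63 for C15orf48 and from -0.13 to 0.18 for COX4I1. C15orf48 ranged from -0.071 to 0.11 for HIF1A against HIF2A siRNA, LONP1 from -0.39 to -0.19 for the double knockdown against control, and NDUFA4L2 from -0.46 to 0.16 against HIF1A siRNA. The interaction ranged from -0.70 to 0.21 for NDUFA4L2 and from -0.041 to 0.14 for LONP1, and the log2 ratio of NDUFA4L2 to NDUFA4 with HIF2A siRNA from -0.13 to 0.20. The cause of these changes was not tested, and fits without a library hold fewer samples. Without replicate-mean subtraction r ranged from 0.31 to 0.99 over the 15 genes named for likeness. With 3 libraries a condition, COX4I2 at 0 counts and genes that overlap others set the limits of these data.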
